A study of Homo sapiens with 4 samples.

Results

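MYC was described here as an mRNA with F-MARF1ΔNYN peaks in its coding exons and in its 3'UTR. The gene was chosen by the peak lists themselves, and every shared interval and every peak that overlaps its gene body (hg19, chromosome 8, 128747680 to 128755197, plus strand, ENSG00000136997) was taken. This gave 5 of 282 intervals shared by both replicates, 5 of the 719 peaks of replicate 1 and 6 of the 534 peaks of replicate 2. MYC was chosen for its peaks in coding exons. The positions of its peaks, their fold enrichments, q-values and read numbers are therefore a description and carry no test.

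The libraries came from crosslinking and immunoprecipitation (iCLIP) with a FLAG antibody in HEK293 cells, a human embryonic kidney line. There were 2 biological replicates of cells expressing F-MARF1ΔNYN, a FLAG-tagged MARF1 without its NYN nuclease domain, induced for 12 hr at a doxycycline concentration of 100 ng/mL. In parallel, 2 replicates of control HEK293 cells without a FLAG-tagged protein went through the same procedure. All 4 were crosslinked at 254 nm with 400 mJ per square centimetre, and whether the control cells received doxycycline is not given in the sources used here. The labelled cell type could not be checked, because peak lists give no expression levels. For the same reason the amount of MYC mRNA in these cells is unknown.

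MARF1 cleaves RNA through its NYN domain and contacts transcripts through LOTUS domains and RNA recognition motifs. MYC encodes a basic helix-loop-helix leucine zipper transcription factor that pairs with MAX and drives growth and proliferation. Its mRNA is short-lived, and both its AU-rich 3'UTR and a determinant within the coding region, bound by IGF2BP1, are known to govern its stability. The first exon is largely 5'UTR, the second encodes the N-terminal transactivation region, and the last encodes the C-terminal DNA-binding and dimerization region and holds the 3'UTR.

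Positions were read against the principal transcript MYC-206, which has 3 exons, 363 bases of 5'UTR, 1365 coding bases and 1993 bases of 3'UTR. A shorter transcript, MYC-202, ends 476 bases after the stop codon, and codons are numbered here from its AUG, which opens a reading frame of 439 amino acids. Of the coding bases, 772 lie in exon 2 and 563 in exon 3, and the remaining 30 in exon 1 belong to the upstream CUG start. The peak lists carry no strand. An exon of the antisense noncoding gene CASC11 (chromosome 8, 128751040 to 128751233) overlaps 194 bases of exon 2, and reads of MYC and CASC11 cannot be told apart there.

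Shared intervals fell in both coding exons and once in the 3'UTR. In exon 2, interval 1 spanned chromosome 8, 128750577 to 128750796 (220 bp, codons 23 to 96), and interval 2 spanned 128750857 to 128751288 (432 bp, codons 117 to 253). In exon 3, interval 3 spanned 128752685 to 128752904 (220 bp, codons 267 to 340), and interval 4 spanned 128752969 to 128753108 (140 bp, codons 362 to 408). Interval 5 lay at 128753531 to 128753690 (160 bp) and began 327 bases after the stop codon. Thus 4 of the 5 intervals were coding by their middle base, against 21 of 282 intervals in the whole list (7.45%). Those 21 were these 4 and 17 of MARF1, and the gene was chosen for its coding peaks, so the contrast is no result. With a reciprocal overlap of at least 50%, or with summits within 100 bp, 2 of the 5 were left, interval 2 in coding sequence, over the CASC11 exon, and interval 5 in the 3'UTR. The annotation deposited with the list places the same 4 in an exon and 1 in the 3'UTR. The intervals come from fewer calls than their number implies, since 4 peaks of replicate 1 and 4 of replicate 2 gave rise to all 5.

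**Figure D1:**
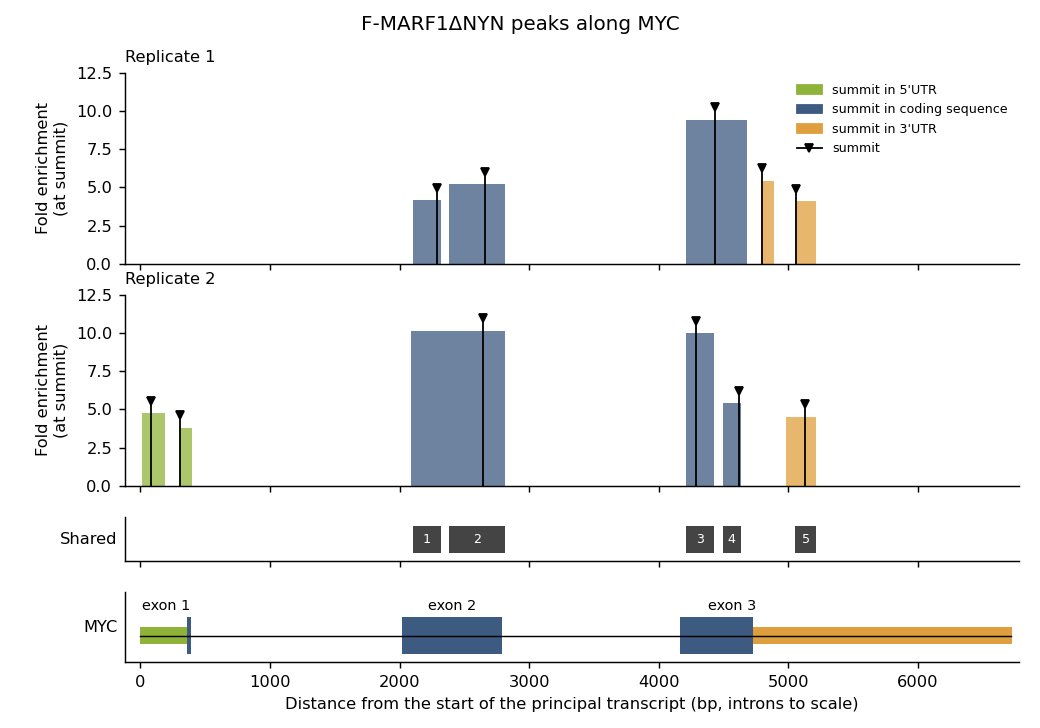
Peaks of each replicate along MYC, with the distance from the start of the principal transcript in bp on the horizontal axis and the fold enrichment at the summit as the height of each block, which spans the called peak and is coloured by the part of the mRNA that holds the summit (black marker). The 5 shared intervals and the gene model are drawn below, and peaks with coding summits reach fold enrichments of 4.19 to 10.16 in exons 2 and 3, while those in the 3'UTR lie between 4.11 and 5.44.

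In exon 2, replicate 1 had 2 separate peaks where replicate 2 had 1 long peak. The first peak of replicate 1 reached a fold enrichment of 4.19 over the local background (q = 0.000116), with its summit at codon 87. Its neighbour reached a fold enrichment of 5.22 (q = 7.05e-07), with its summit at codon 209. The exon 2 peak of replicate 2, 730 bp long, reached 10.16 (q = 6.18e-19) with its summit at codon 203. The replicate 2 summit therefore stood 18 bp from the nearer summit of replicate 1 and 348 bp from the farther one, in the 3' part of exon 2. Interval 1 holds no summit of replicate 2, and the value of 10.16 attached to it was measured in interval 2. The pair of summits 18 bp apart lies within the CASC11 exon, so the highest fold enrichment in MYC and the closest pair of summits come from bases where the strand of the reads is unknown.

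The coding part of exon 3 showed the reverse arrangement, with 1 peak in replicate 1 and 2 in replicate 2. Replicate 1 had a 469 bp peak with a fold enrichment of 9.43 (q = 1.26e-11) and its summit at codon 342. The first of the replicate 2 peaks reached 10.01 (q = 6.29e-14) with its summit at codon 294. The second of them reached 5.39 (q = 0.000534) with its summit at codon 405. The replicate 1 summit lay between those of replicate 2, at 144 and 189 bp from them, and outside both shared intervals. The replicates thus shared called bases in the coding part of exon 3 but no summit position.

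In the 3'UTR, the last peak of each replicate formed interval 5. Its fold enrichment was 4.11 in replicate 1 (q = 0.00605), with the summit 331 bases after the stop codon. In replicate 2 it was 4.53 (q = 0.000158), with the summit at 404 bases, so the summits stood 73 bp apart. Both peaks ended at the same base, 128753690, which is 10 bases past the end of the shorter transcript. Of the 1517 bases of the long 3'UTR beyond that end, these 10 were the ones under a peak in either replicate.

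Beside the shared peaks, each replicate had calls of its own. Replicate 1 had a 105 bp peak in the 3'UTR with its summit 71 bases after the stop codon and a fold enrichment of 5.44 (q = 0.000305). Replicate 2 had 2 peaks in exon 1, with summits in the 5'UTR at bases 83 and 303 of the mRNA and fold enrichments of 4.77 (q = 0.00101) and 3.81 (q = 0.0137). No peak of replicate 1 overlapped exon 1, and a missing call at this depth does not show that reads were absent.

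The peak caller's values allow the reads at each summit and the background to be solved, with the background given as control reads per 100 bp. At the exon 2 summits, replicate 1 had 20 reads (95% Poisson interval 12.2 to 30.9) over 5 control reads and 21 reads (13.0 to 32.1) over 4. Replicate 2 had 31 reads (21.1 to 44) over 2 control reads there, at the summit within the CASC11 exon. Replicate 2 thus had more reads and fewer control reads at these summits, and both enter its higher fold enrichment. The counting intervals overlap for the reads and also for the control reads (1.62 to 11.7 for 5, 1.09 to 10.2 for 4 and 0.242 to 7.22 for 2).

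At the exon 3 coding summits, replicate 1 had 16 reads (9.15 to 26.0) over 1 control read. Replicate 2 had 20 reads (12.2 to 30.9) over 1 and 12 reads (6.20 to 21.0) over 1.3, the last a value from a wider window. For 1 control read the counting interval is 0.0253 to 5.57, which overlaps those in exon 2. The difference in background between the exons was not tested. In the 3'UTR, interval 5 had 13 reads (6.92 to 22.2) in replicate 1 and 18 reads (10.7 to 28.4) in replicate 2, both over 3 control reads. The peaks found in a single replicate had 11 reads over 1.5 control reads in the 3'UTR of replicate 1, and 14 over 2 and 15 over 3 in exon 1 of replicate 2. The reads at coding summits (16 to 21 in replicate 1, 12 to 31 in replicate 2) and at 3'UTR summits (11 to 13, and 18) have overlapping intervals within each replicate, and the intervals cover counting error only.

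**Figure D2:**
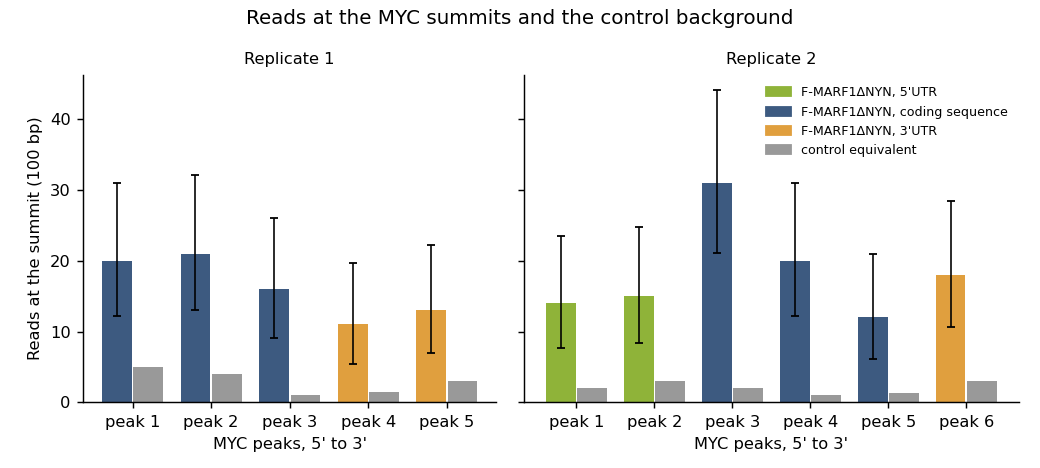
Reads of F-MARF1ΔNYN at the summit of each MYC peak, in 5' to 3' order, with 95% Poisson intervals as error bars and colours by the part of the mRNA, beside the control background as reads per 100 bp (grey). In replicate 1 the background is 5 and 4 control reads in exon 2, 1 at the coding peak of exon 3, and 1.5 and 3 in the 3'UTR, and in replicate 2 it lies between 1 and 3 at all 6 peaks.

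Counted in bases, the shared intervals covered 72.5% of the coding sequence, 8.03% of the long 3'UTR and none of the 5'UTR. Against the 3'UTR of the shorter transcript the share was 31.5%. Of all 1172 bases in shared intervals, 84.4% were coding, 13.7% lay in the 3'UTR and 1.96% (23 bases) ran past the end of exon 2 into the intron. Reads are extended to 100 bp on the genome, so peaks can pass an exon border, and apart from such overhangs no peak lay in the introns.

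Coding coverage was close between replicates, at 80.4% in replicate 1 and 80.2% in replicate 2, but not in the same exons. Exon 2 was covered over 81.5% of its bases in replicate 1 and 91.2% in replicate 2. For the coding part of exon 3 the values were 83.3% and 64.1%. The 3'UTR of the shorter transcript was covered over 53.6% in replicate 1 and 47.1% in replicate 2, and the 5'UTR over 64.5% in replicate 2 and not at all in replicate 1. Coding bases made up 79.2% of the bases under peaks in replicate 1 and 68.5% in replicate 2, the difference being mainly the exon 1 peaks of replicate 2. The coding bases without a shared interval lay in the 15 codons ahead of the AUG and at codons 1 to 23, 97 to 116, 253 to 267, 341 to 362 and 409 to 440. Most of the reading frame was thus under shared intervals. Peaks of reads extended to 100 bp do not show how many sites lie in them.

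**Figure D3:**
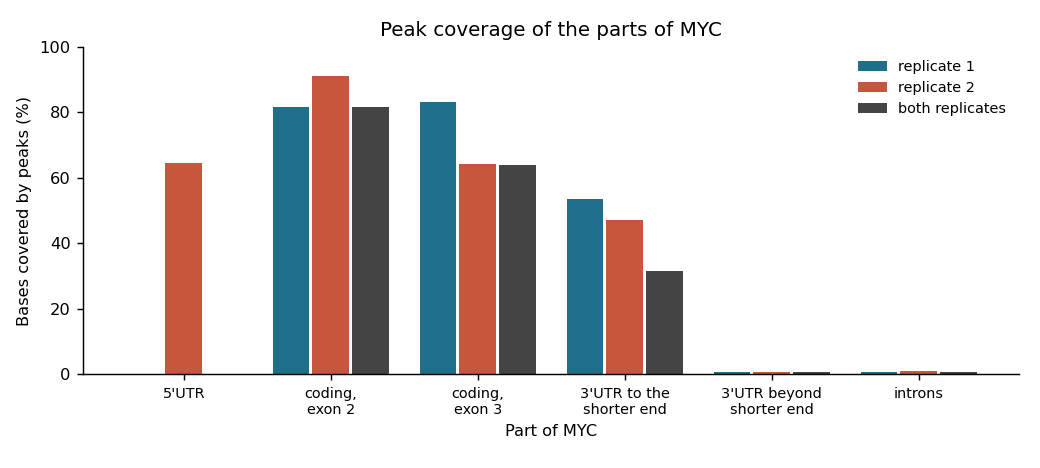
Percent of the bases of each part of MYC that lie under peaks of replicate 1, of replicate 2 and of both, with the 3'UTR divided at the end of the shorter transcript. Both coding exons are covered over 63.9% or more in every case, the 3'UTR beyond the shorter end over 0.659%, and the 5'UTR in replicate 2 alone (64.5%).

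The sequence under the intervals differed between the coding region and the 3'UTR. Intervals 1 and 2 in exon 2 had GC contents of 67.3% and 65.5%, and intervals 3 and 4 in exon 3 had 56.8% and 50.7%. Interval 5 in the 3'UTR had 23.1%, with 42.5% uridine against 15.5 to 17.9% in the coding intervals. The coding bases inside shared intervals had a GC content of 61.8%, and those outside had 50.5%, with 58.7% over the whole coding sequence. In the 3'UTR the order was the opposite, with 23.1% inside interval 5, 40.4% outside it and 39.0% over the whole. The 5 intervals thus share no common base composition, and with 1 gene no relation to binding can be drawn from it. None of the 5 had a copy elsewhere in the genome at 95% identity over 90% of its length, nor any other match of 50 bp or more at that identity. Shorter or less similar matches elsewhere numbered 3 for interval 1 and 1 each for intervals 2 and 4.

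Among all called peaks, the exon 2 peaks of MYC combined many reads with a high background, its UTR peaks had a high background with fewer reads, and its exon 3 coding peaks varied. In replicate 1, 88.5% of all peaks had fewer reads than the exon 3 coding peak, and 93.3% and 94.3% had fewer than the exon 2 peaks. In replicate 2, 95.9% of peaks had fewer reads than the exon 2 peak, and 86.5% and 51.7% had fewer than the exon 3 coding peaks. The second exon 3 peak of replicate 2 was thus near the middle of its list. The peaks in the UTRs stood above 69.8% and 80.1% of peaks by reads in replicate 1, and above 65.0%, 69.3% and 81.5% in replicate 2. By background, 98.7% and 97.5% of peaks were lower than the exon 2 peaks of replicate 1 and 89.7% lower than that of replicate 2, while the exon 3 coding peaks exceeded 70.7% in replicate 1, and 67.2% and 85.6% in replicate 2. The UTR peaks exceeded 87.8% and 95.4% by background in replicate 1, and 89.7%, 95.7% and 95.7% in replicate 2, so a high background was not particular to exon 2. By fold enrichment the order was different, since the exon 2 peaks of replicate 1 ranked 706 and 559 of 719, and its exon 3 coding peak ranked 68. In replicate 2, the exon 2 peak ranked 83 of 534, the first exon 3 peak 91 and the second 488, while interval 5 ranked 708 of 719 in replicate 1 and 524 of 534 in replicate 2.

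The background at MYC was compared with that of other peaks shared by both replicates. It was at least 2 control reads per 100 bp at 3 of its 4 shared peaks in replicate 1, against 54 of 254 shared peaks elsewhere (21.3%). In replicate 2 it was that high at 2 of its 4, against 36 of 246 elsewhere (14.6%). These are counts without a test, and they show that the control libraries, from cells without F-MARF1ΔNYN, also held reads over the exons of MYC. The median reads at shared peaks were 18.0 for MYC and 12.0 elsewhere in replicate 1, and 19.0 and 14.0 in replicate 2. The median fold enrichments ran the other way, at 4.7 for MYC and 7.21 elsewhere in replicate 1, and 7.7 and 8.15 in replicate 2.

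**Figure D4:**
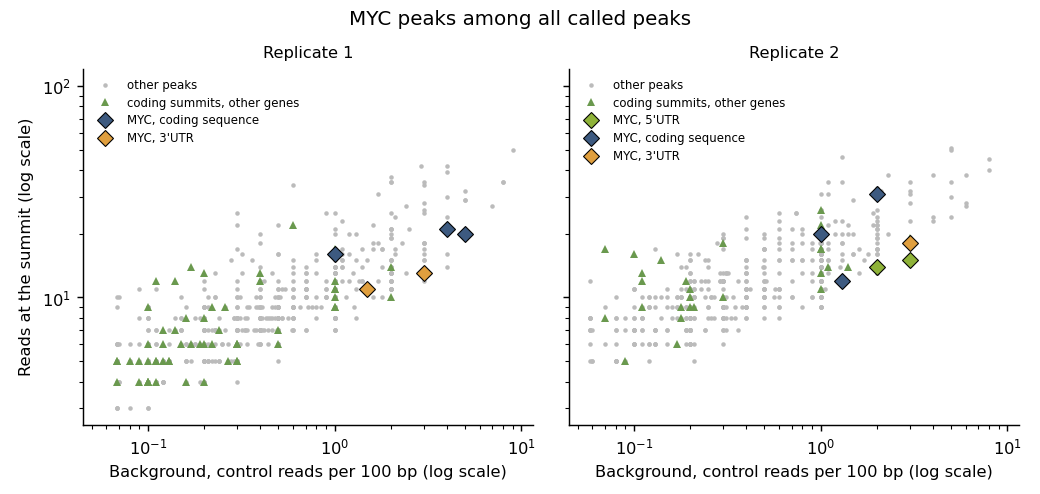
Reads at the summit against the background in control reads per 100 bp, both on log scales, for each called peak of replicate 1 (719) and replicate 2 (534), with MYC peaks as diamonds coloured by the part of the mRNA and coding summits of other genes as triangles. MYC peaks lie at backgrounds of 1 to 5 control reads in replicate 1 and 1 to 3 in replicate 2, to the right of most coding summits of other genes, whose medians outside MARF1 are 0.13 and 0.605.

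Of 104 protein-coding genes with a shared interval in coding sequence or a UTR, 8 had more than the 5 intervals of MYC and 4 others had as many. By bases in shared intervals (1172 for MYC, median 204), 11 genes were higher. When each gene was represented by its best interval, scored by whichever replicate was weaker (9.43 for MYC, median 7.04), 15 were higher. MYC thus stood in the upper part of the list by extent and by its best interval, interval 3 in exon 3. The 9.43 that ranks interval 3 was measured at a replicate 1 summit outside it, and the shared peaks of MYC had a median fold enrichment below that of the others in both replicates.

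Coding summits were rare elsewhere. They made up 61 of 719 peaks in replicate 1 (8.48%) and 31 of 534 in replicate 2 (5.81%), and 3 of them belonged to MYC in each replicate. They fell in 39 genes in replicate 1 and 12 in replicate 2. The genes on both lists were 2, MARF1 and MYC (5.13% of the first list and 16.7% of the second). MYC was chosen for its coding peaks, so its place there is no result. With peaks in any part of an exon, the protein-coding genes were 341 in replicate 1 and 229 in replicate 2, and 106 had a shared interval, a narrower measure. Outside MARF1 and MYC, 37 genes of replicate 1 had 38 coding summits with a median of 5.0 reads. In replicate 2, 10 genes had 10 with a median of 11, and the median for MYC was 20 in both. The median background was also higher for MYC. It was 4.0 against 0.13 control reads per 100 bp in replicate 1, and 1.3 against 0.605 in replicate 2. By median fold enrichment, MYC was lower in replicate 1 (5.22 against 5.57) and higher in replicate 2 (10.01 against 6.39).

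MARF1, the only other protein-coding gene with shared intervals centred on coding sequence, had 17 of the 21. The induced cells carry a MARF1 transgene that the control cells lack, and reads of its mRNA cannot be told apart from those of the endogenous gene in the coding sequence that both contain, which leaves out the NYN stretch. Its coding summits had median fold enrichments of 8.24 and 9.59 and a low background, with medians of 0.31 and 0.195 control reads per 100 bp. At the MYC coding summits the median background was 4.0 and 1.3.

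Likeness to MYC was measured as the percent of a gene's summits, both replicates together, in coding sequence. It was 54.5% for MYC (6 of 11 summits, with 3 in the 3'UTR and 2 in the 5'UTR) and was compared over 105 genes with at least 3 peaks in all and at least 1 in each replicate, of which 97 had no coding summit. Nearest was ARID1A, a chromatin remodelling subunit, with 2 of 4 summits coding (50%). Its coding peaks, with 6 and 9 reads over 0.3 and 0.26 control reads, both came from replicate 1.

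Next came SPEN and ZBTB18, transcriptional repressors, with 1 coding summit of 3 each (33.3%), SPEN in replicate 2 and ZBTB18 in replicate 1. TNRC18 followed with 1 of 5 (20.0%), in replicate 2 with 11 reads. PGAM4 had 1 of 6 (16.7%), in replicate 1, and its reads are uncertain because it is a near-identical copy of PGAM1. The coding peak of PGAM4 had 14 reads over a background of 2.0 control reads per 100 bp. The values were 11 over 1.0 for SPEN, 6 over 0.5 for ZBTB18 and 11 over 0.2 for TNRC18. Of these 5 genes, ARID1A alone had more than 1 coding summit, so for the others a coding summit in both replicates was not possible.

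**Figure D5:**
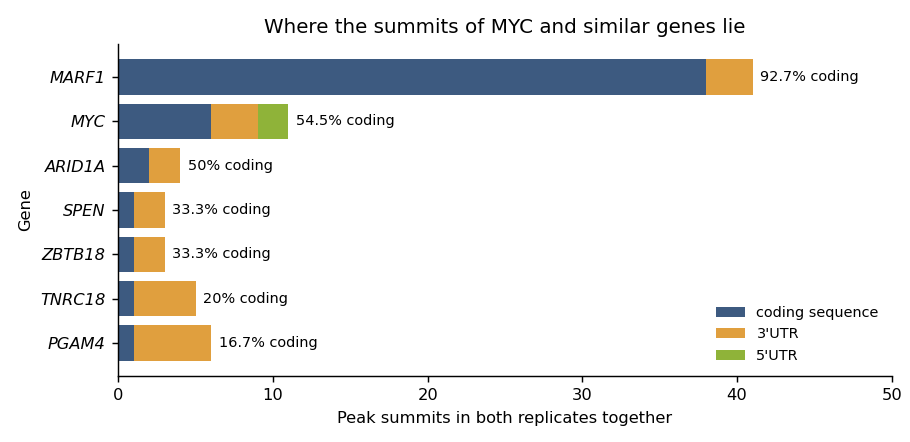
Number of peak summits, both replicates together, in coding sequence, 3'UTR and 5'UTR for MYC, for the 5 genes nearest to it in the percent of coding summits, and for MARF1, with that percent at the end of each bar. MYC has 6 of 11 summits in coding sequence, and the 5 nearest genes have 1 or 2 each.

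On chromosome 8, replicate 1 had 25 peaks and replicate 2 had 18, and those of MYC were the last toward the telomere of the long arm in both. The neighbouring noncoding gene PVT1 had 0 peaks. The nearest peak on the other side lay 2297061 bp away in replicate 1, in the 3'UTR of TRIB1, a pseudokinase gene, with a fold enrichment of 7.14 and 7 reads. In replicate 2 it lay 3421776 bp away in the 3'UTR of TMEM65, with 7.29 and 8 reads.

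Genes related to MYC were looked up as lists. Over all 20136 protein-coding genes, 106 had a shared interval in an exon (0.526%), 341 had a peak in replicate 1 (1.69%) and 229 in replicate 2 (1.14%). In the network of MYC, MAX and MLX partners, 1 of 13 genes had a shared interval, namely MYC itself. MAX, its dimerization partner, had no exonic peak in either replicate, and neither did the MXD and MNT antagonists.

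Among 22 genes whose proteins are known to bind or regulate MYC mRNA, 2 had shared intervals. IGF2BP1, which protects MYC mRNA through its coding region, had 9 shared intervals, all in its 3'UTR, and the strongest had fold enrichments of 12.7 in replicate 1 and 15.2 in replicate 2. ZFP36L2, a member of the family that destabilizes AU-rich mRNAs, had 1 in the 3'UTR with 7.76 and 8.58. IGF2BP2 had a single 3'UTR peak, in replicate 2, with a fold enrichment of 10.5 and 21 reads.

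For turnover of the MYC protein, 1 of 14 genes had a shared interval, PPP2R5A, a regulatory subunit of phosphatase PP2A, with 6.89 and 8.13 in its 3'UTR. USP37, a deubiquitinase, had a 3'UTR peak in replicate 1 alone (4.63, 4 reads). Of 18 immediate early and short-lived mRNAs, such as FOS, JUN and EGR1, 0 had a peak in either replicate. Among 10 genes of decapping and MARF1 partners, MARF1 had shared intervals (18, with 17 of them coding), and DCP2, the decapping enzyme, had a 3'UTR peak in replicate 1 alone (5.12, 7 reads). Apart from MARF1 and MYC, the latter chosen for its coding peaks, the listed genes with peaks had them in the 3'UTR. Over all peaks, summits in coding sequence were 8.48% in replicate 1 and 5.81% in replicate 2.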

How the data were processed

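Trimmed reads (Trimmomatic 0.32) were aligned by the authors to GRCh37, the hg19 build, using STAR 2.3.0e. Reads with more than 10 placements, secondary alignments (SAMtools 1.9) and duplicates at a position (Picard 2.10.7) were discarded. MACS2 2.1.1, at an extension of 100 bp and an FDR of 0.05, compared each F-MARF1ΔNYN library with its numbered control, and HOMER 4.10 annotated the overlaps. Versions are those of the submitters' processing notes. Removing duplicates limits the reads that can stack at a summit, and with extended reads a summit is not a crosslinked base.

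Each deposited peak has a score, and a fold enrichment, which is a ratio to the local background. The deposited −log10 p-values and q-values come from MACS2. Counts over fixed regions per library were not analysed here, so groups were not tested.

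Reads and background were solved from fold = (reads + 1) / (background + 1) and the Poisson p-value, within 0.001 on the log10 scale, for 719 of 719 and 534 of 534 peaks. A read weighed 1 in replicate 1 and 0.951 in replicate 2, and a control read 0.803 and 1. If MACS2 ran with its default genome size of 2700000000, the F-MARF1ΔNYN libraries held about 1470000 and 1640000 reads, and the controls 1830000 and 1560000.

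Peaks were intersected at 1 bp and annotated with GENCODE release 44. Copies were sought with blastn 2.17.0. Python 3.11.15, numpy 2.4.6, pandas 2.3.3, scipy 1.17.1 and matplotlib 3.10.9 were used.

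The members and lists were chosen with earlier results of these data known. Genes named are MYC, other protein-coding genes with a shared interval centred on coding sequence, the 5 genes nearest to MYC in percent of coding summits (with at least 1 peak in each replicate and 3 in all), the chromosome 8 genes with the nearest peaks, and listed genes with a shared interval, or with a peak where 5 or fewer have one. Values of PVT1, CASC11 and listed genes without a peak were known when these were picked for naming.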

Additional observations from a re-analysis of the deposited data

How the results depend on the processing

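On 5 results, 23 alternatives were tried. Requiring a reciprocal overlap of at least 50% left 2 of the 5 intervals (intervals 2 and 5), and requiring summits within 100 bp left the same 2. Peaks of a single replicate numbered 5 to 6. The share of coding bases, 84.4%, was 75.0% by the summits of the parent peaks, 97.7% with q-values below 0.001 in both replicates (which drops interval 5), 66.4% for the union of both replicates' peaks, and 68.5 to 79.2% with a replicate left out. The median log2 fold enrichment of 2.83 was 2.38 to 3.32 in single replicates, and the median of 18 reads was 16 to 20, which describes the replicates and says nothing about stability. The remaining alternatives gave 4 to 5 intervals, 80 to 84.4% coding and a log2 fold enrichment of 2.38. A weight of 1 for every read gave 17.5 reads, but it solved 3 of 534 peaks of replicate 2 and is no usable alternative there. Intervals share parent peaks, so medians over them count some peaks more than once. No paired analysis was possible because every list is itself 1 numbered pair of libraries, and reads could be solved at called peaks but not at the same positions in both pairs. The median distance between the replicates' summits, 144 bp, fell to 45.5 bp at the reciprocal overlap, where 2 intervals are left. MYC summits hold 11 to 31 reads, so differences between single peaks that lie within their Poisson intervals were not detectable at this depth.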
